A study of Rattus norvegicus with 16 samples.

Results

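Microglia sorted from the brains of irradiated rats were compared between animals given lipopolysaccharide (LPS) and animals given phosphate-buffered saline (PBS), to describe how microglia that had already been irradiated answered a bacterial stimulus. The comparison holds 8 of the 16 libraries of the series, 4 from irradiated rats given LPS and 4 from irradiated rats given PBS, and 12308 of 21842 gene symbols had enough counts to be tested. All rats were male Wistar rats (Hsd/Cpb:WU). The irradiated animals had received 14 Gy of X-rays to the whole brain, and LPS or PBS was injected into the peritoneum 6 weeks later. The other 8 libraries came from sham-irradiated rats given LPS or PBS, again 4 of each, and enter here only where the responses are compared. Brains were taken apart mechanically in the cold, and live cells with high CD11b and intermediate CD45, the surface phenotype of microglia, were collected by flow cytometry. The dose of LPS, the time between injection and collection and the age of the rats are not stated in the labels. Nothing in the labels ties a library to an animal or culture, and p-values therefore reflect only how much the libraries vary, which may be technical.

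Microglia are the resident macrophages of the brain. LPS, a component of the outer membrane of Gram-negative bacteria, is carried by Cd14 to a receptor made of Tlr4 and Ly96. From there the adaptor Myd88 leads to NF-kB and MAP kinases, which switch on cytokines such as Tnf and Il1b, and the adaptors Ticam2 and Ticam1 lead to interferon regulatory factors and the type I interferon response. Both arms induce their own inhibitors. After an injection into the peritoneum, microglia meet LPS itself, cytokines from the blood and stress hormones such as glucocorticoids, and expression in sorted cells cannot separate these inputs.

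Levels are read counts scaled to library size with TMM factors, in CPM. Changes are log2 fold changes of LPS over PBS in irradiated rats, with their SE and 4 libraries per group. The words rose and fell are used where the Benjamini-Hochberg adjusted p of the edgeR quasi-likelihood test was under 0.05. Libraries are called by treatment and number, so LPS 4 is library 4 of the irradiated rats given LPS.

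Totals were 18581343, 61435103, 32126494 and 36352688 counts in the LPS libraries, against 13990623, 16426301, 19529051 and 24444248 counts in the PBS libraries. The deeper LPS libraries carry less counting error. Pairs of libraries within a group correlated with r between 0.9378 and 0.9713 over genes, and each pair differed by far more than counting error (chi-square per degree of freedom between 17.31 and 69.09). LPS 1 and PBS 1 stood apart from the other 3 libraries of their groups. Summed neuronal markers were 131.8 CPM in LPS 1 and 13.65 to 31.69 CPM in LPS 2 to 4, and 92.24 CPM in PBS 1 and 15.28 to 44.23 CPM in PBS 2 to 4. LPS 1 also held more neutrophil markers (2528 CPM, against 416.1 to 631.9 CPM in LPS 2 to 4) and more haemoglobin and red cell markers (158.2 CPM, against 10.38 to 25.92 CPM). Values without these libraries are given for some of the results that moved. The symbols Dusp1, C5ar1, Ccr1, Ticam1 and Cd36 are not analysed here, and Isg15 was at 0 in all 8 libraries.

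The sorted cells carried the microglial markers, and their summed level was lower with LPS. The summed level of 8 microglial markers was 15460, 20000, 18340 and 17420 CPM in the LPS libraries, against 21570, 25860, 27140 and 25590 CPM in the PBS libraries, and the groups did not overlap. Of these 8 markers 7 fell, against 15.2% of all tested genes, and 4 fell when PBS 3, LPS 1 or LPS 4 was left out in turn. In bulk samples, fewer cells of a type and less RNA per cell cannot be told apart. The summed levels of markers of neutrophils, monocytes, border-associated macrophages and T and NK cells were higher with LPS, and the counts of single markers are given at the end.

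LPS changed 4051 of 12308 tested genes in irradiated rats (32.9%), of which 2183 rose (17.7%) and 1868 fell (15.2%). The shares of 17.7% and 15.2% are the background for all counts of list members below. At least 2-fold changes numbered 749 higher and 567 lower. The large changes ran upward, with 163 genes at least 8-fold higher and 115 genes at least 4-fold lower. In 3488 of the called genes the libraries of the 2 groups did not overlap. Over all tested genes, called or not, all LPS libraries were above all PBS libraries in 18.1% and below them in 15.3%. The median log2 fold change of all tested genes was -0.02. When scaled by library totals without TMM factors, that median was -0.14, and 39.21% of 4313 calls were higher, against 53.89% of the calls with TMM factors.

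**Figure D1:**
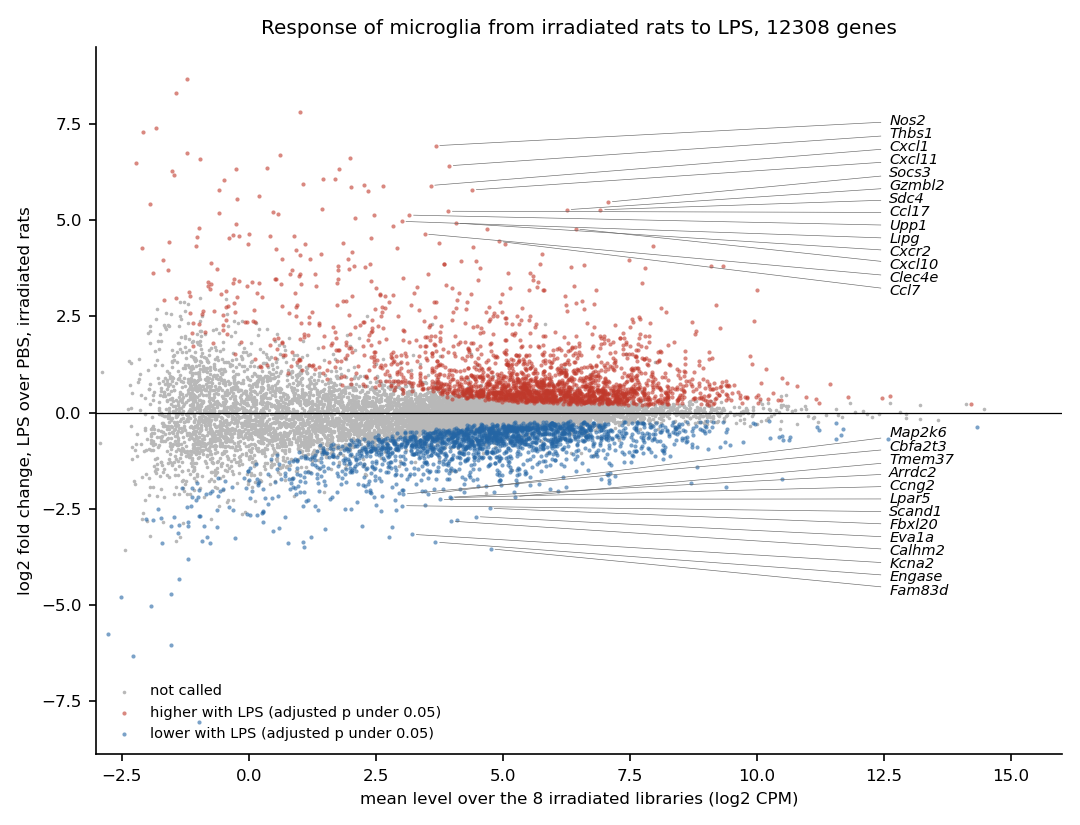
Log2 fold change of LPS over PBS in irradiated rats (vertical axis) against the mean level over the 8 irradiated libraries (horizontal axis, log2 CPM), 1 point per tested gene. Red points are the 2183 genes that rose, blue points the 1868 that fell, grey points those not called, and the names mark genes with some of the largest changes among those at or above a mean log2 CPM of 3 whose groups did not overlap (AC128848.1 and NEWGENE_620180 belong to them and are not written in the plot).

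Among genes averaging 3 or more on the log2 CPM scale whose groups did not overlap, the largest increases were those of Nos2, Thbs1, Cxcl1, Cxcl11, Socs3, Gzmbl2 and Sdc4, in this order. Thbs1, which encodes the secreted glycoprotein thrombospondin-1, had 276, 108, 154 and 325 CPM in the LPS libraries, against 4.88, 0.397, 0.0983 and 4.61 CPM in the PBS libraries, a log2 fold change of 6.41 ± 0.84. Sdc4, a heparan sulfate proteoglycan of the cell surface, had 1049, 591, 561 and 939.7 CPM in the LPS libraries, against 32.8, 13.8, 15.7 and 19.4 CPM in the PBS libraries (5.27 ± 0.41, 38.5-fold). LPS 1 and LPS 4 were the highest libraries for both genes, and neither gene's groups overlapped. Upp1, which encodes a uridine phosphorylase, rose 35.0-fold, Lipg, which encodes endothelial lipase, 31.3-fold, and Clec4e, which encodes the lectin receptor Mincle, 25.0-fold. AC128848.1, a symbol without annotation in the files, rose 27.4-fold. Gzmbl2, a granzyme gene of cytotoxic lymphocytes, rose 38.6-fold, and its reads can be split with near-identical family members.

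The largest decreases were smaller and lay in less familiar genes. Fam83d, which encodes a protein of the mitotic spindle, had 7.31, 14.0, 5.75 and 5.71 CPM in the LPS libraries, against 75.1, 88.9, 113 and 109.8 CPM in the PBS libraries, 11.6-fold lower with LPS (-3.54 ± 0.26). Engase, an enzyme that trims N-glycans in the cytosol, had 3.71, 4.71, 2.67 and 4.87 CPM in the LPS libraries, against 44.5, 51.0, 37.1 and 33.0 CPM in the PBS libraries (10.3-fold lower), and the calcium homeostasis modulator Calhm2 had 7.00, 5.65, 6.57 and 4.57 CPM in the LPS libraries, against 36.9, 45.9, 42.9 and 41.6 CPM in the PBS libraries (7.06-fold lower). All LPS libraries lay far below all PBS libraries for these 3 genes. Eva1a fell 6.51-fold, NEWGENE_620180 6.97-fold, the potassium channel Kcna2 8.96-fold and the F-box gene Fbxl20 5.60-fold. The cyclin gene Ccng2 fell 4.63-fold, Arrdc2 4.59-fold, Tmem37 4.54-fold, the corepressor Cbfa2t3 4.35-fold, the lysophosphatidic acid receptor Lpar5 4.77-fold and the p38 kinase kinase Map2k6 4.34-fold. Scand1 fell by 5.34-fold (-2.42 ± 0.73, adjusted p = 0.0193). That call was lost without PBS 3 (-2.18, adjusted p = 0.0508) and without LPS 4 (-2.28, adjusted p = 0.0596), and without LPS 3 the value was -3.05.

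**Figure D2:**
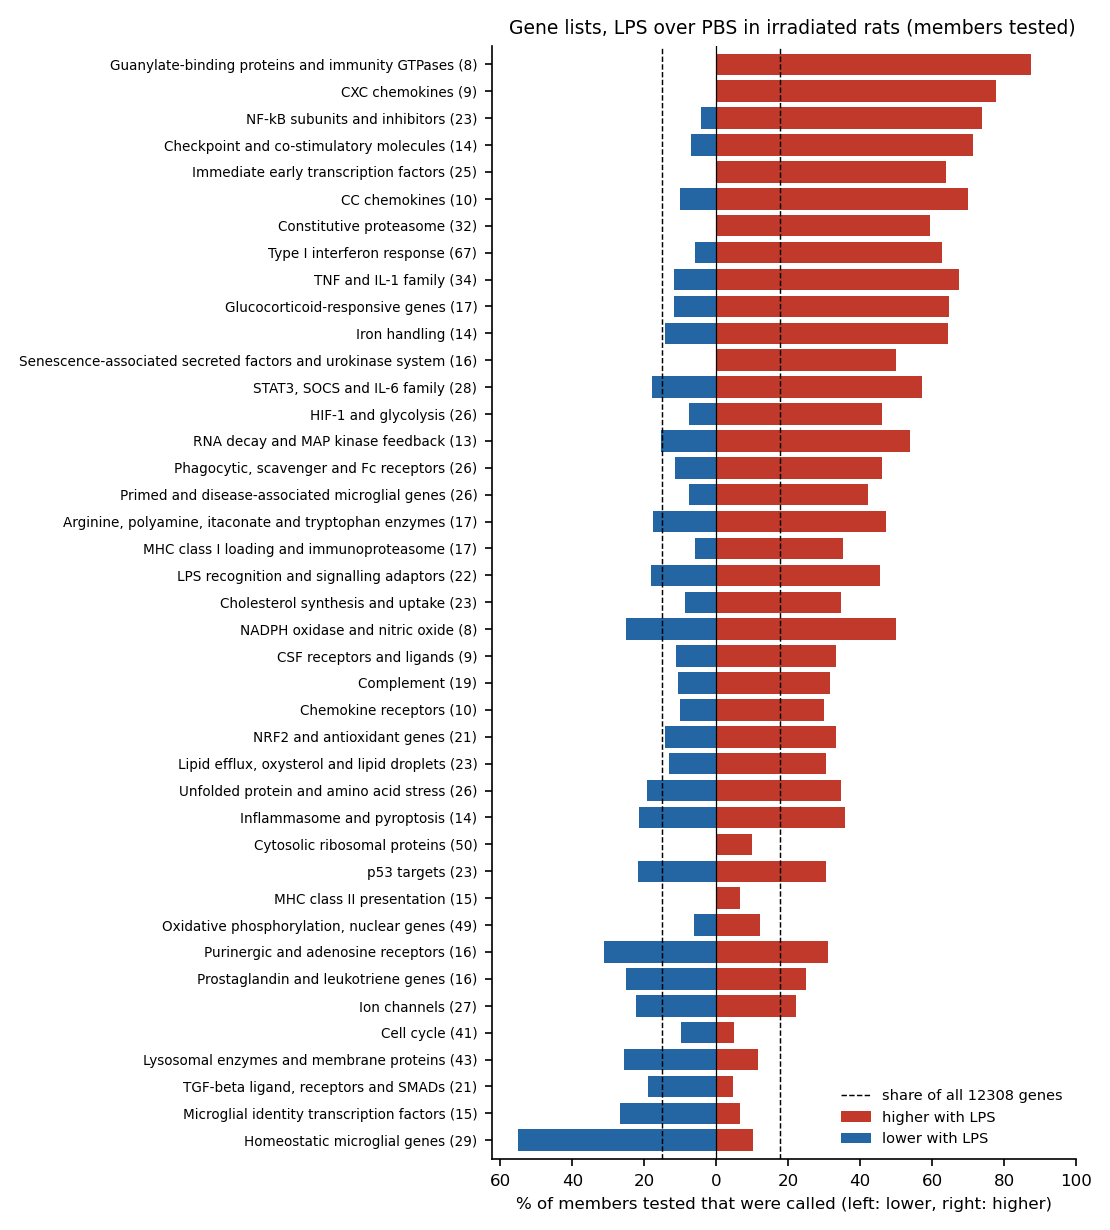
Share of the tested members of each gene list that rose (red, to the right) or fell (blue, to the left) with LPS in irradiated rats, in percent, with the number of members tested in brackets. The dashed lines mark the shares over all 12308 tested genes, 17.7% higher and 15.2% lower, and lists are ordered by the difference between both shares, from guanylate-binding proteins at the top to homeostatic microglial genes at the bottom.

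Genes of LPS sensing were called in both directions. Cd14 had 2403, 2119, 2067 and 3276 CPM in the LPS libraries, against 113, 189, 202 and 206 CPM in the PBS libraries (3.80 ± 0.52, 13.9-fold higher), with LPS 4 highest and every LPS library above every PBS library. Tlr4, the signalling receptor itself, had 84.6, 91.1, 95.0 and 81.8 CPM in the LPS libraries, against 114, 149, 109 and 107 CPM in the PBS libraries (-0.44 ± 0.14, adjusted p = 0.0197), a small decrease whose call was lost without PBS 2 (-0.32, adjusted p = 0.094) and without LPS 4 (-0.41, adjusted p = 0.059) and without both LPS 1 and PBS 1 (-0.44, adjusted p = 0.0634). Ly96, the partner through which Tlr4 binds LPS, was low, at 3.03, 4.03, 1.59 and 1.91 CPM in the LPS libraries, against 1.90, 2.16, 1.97 and 3.09 CPM in the PBS libraries, and did not pass (adjusted p = 0.707). Cd180, a relative of Tlr4 that dampens its signalling in macrophages, had 107, 151, 115 and 104 CPM in the LPS libraries, against 247, 284, 330.3 and 299.98 CPM in the PBS libraries (-1.28 ± 0.12), and its partner Ly86 also fell (-0.48 ± 0.09). In both, all LPS libraries lay below all PBS libraries.

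Among the adaptors, Myd88 rose (262, 262, 261 and 275 CPM in the LPS libraries, against 153, 166, 156 and 155 CPM in the PBS libraries, 0.75 ± 0.09), whereas Ticam2, the bridge to the interferon arm, fell (29.5, 43.2, 35.1 and 38.9 CPM in the LPS libraries, against 77.0, 69.8, 68.3 and 64.0 CPM in the PBS libraries, -0.92 ± 0.13). Irak2 (0.66 ± 0.13), a kinase of the Myd88 complex, and Irak3 (1.46 ± 0.31), a kinase-dead relative that restrains it, rose as well. Aoah, the lipase that removes acyl chains from LPS and inactivates it, had 111, 101, 96.1 and 106 CPM in the LPS libraries, against 56.3, 54.5, 48.4 and 37.1 CPM in the PBS libraries (1.08 ± 0.15). Of 22 tested members of the list of LPS recognition and signalling, 10 rose, 4 fell and 8 did not pass. The number of higher members was 6 without PBS 4 or without LPS 2.

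NF-kB is held in the cytoplasm by inhibitors of the IkB family, and among its first targets are those inhibitors and enzymes that end the signal. Of 23 tested members of this list, 17 rose and 1 fell, with a median log2 fold change of 1.17. By role, 4 of 5 subunits, 5 of 6 genes of the IkB family and 6 of 7 feedback genes rose. Nfkbia, the classical IkB, had 994, 827, 903 and 993 CPM in the LPS libraries, against 183, 196, 267 and 207 CPM in the PBS libraries (2.12 ± 0.18, adjusted p = 1.85e-07). Bcl3, an atypical IkB that acts in the nucleus, had 103, 94.5, 86.3 and 101 CPM in the LPS libraries, against 5.77, 3.63, 3.49 and 6.39 CPM in the PBS libraries (4.31 ± 0.25, 19.8-fold). Nfkbiz, another nuclear IkB, had 188, 163, 229.8 and 303 CPM in the LPS libraries, against 49.9, 64.7, 48.0 and 53.6 CPM in the PBS libraries (2.03 ± 0.18). None of these 3 genes had overlapping groups, and LPS 3 and LPS 4 were the highest for Nfkbiz. Map3k8, a kinase that links the pathway to ERK, rose 3.96-fold (1.99 ± 0.16).

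Tnfaip3 encodes A20, a ubiquitin-editing enzyme that shuts off NF-kB signalling. It had 295, 177, 202 and 311 CPM in the LPS libraries, against 47.6, 67.1, 65.0 and 66.5 CPM in the PBS libraries (2.00 ± 0.18, adjusted p = 1.74e-07), and LPS 1 and LPS 4 were above LPS 2 and LPS 3. Tnip1, which encodes a partner of A20, rose 3.49-fold. Of the subunits, Relb rose by 1.56 ± 0.23, Nfkb2 by 1.46 ± 0.36, Nfkb1 by 0.86 ± 0.11 and Rel by 0.70 ± 0.17 on the log2 scale. Map3k14, the kinase of the non-canonical pathway, was the member that fell (-0.84 ± 0.20).

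The sequence before the start of Tnfaip3 is shown because this inhibitor rose with its pathway. It is the 250 bases before the gene's start in RefSeq's annotation of the rat build GRCr8 (chr1:15543980-15544229, minus strand; the counts were made on mRatBN7.2), 5′ to 3′ on the gene's strand, and the capitals mark the matches to the NF-kB consensus on either strand.
Tnfaip3: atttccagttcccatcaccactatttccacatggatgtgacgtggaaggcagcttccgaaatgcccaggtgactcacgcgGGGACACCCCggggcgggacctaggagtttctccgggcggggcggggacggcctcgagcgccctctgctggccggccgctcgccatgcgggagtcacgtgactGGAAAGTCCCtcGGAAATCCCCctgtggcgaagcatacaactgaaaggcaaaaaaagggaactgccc
There are 3 matches, the farthest beginning 170 bases and the nearest 55 bases before the start. Of the risen NF-kB list members that had a promoter in the table, 8 of 15 held such a match (53.3%), against 6.41% of all 27457 promoters and 8.36% of the promoters of tested genes. Of the members not called, 0 of 3 promoters held one. A match describes the letters and is not evidence of binding.

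Cytokines of the TNF and IL-1 families carry the inflammatory signal between cells. Of 34 tested genes of these families and their signalling 23 rose and 4 fell, and the risen ones included 5 of 10 ligands, all 3 antagonists and 8 of 11 receptors. The number that fell was 2 without LPS 1 or without LPS 4. Il1b had 1221, 792, 795 and 1776 CPM in the LPS libraries, against 56.3, 46.9, 60.0 and 63.6 CPM in the PBS libraries (4.34 ± 0.30, 20.2-fold). Tnf had 199, 267, 312 and 474 CPM in the LPS libraries, against 27.0, 29.8, 59.2 and 59.3 CPM in the PBS libraries (2.83 ± 0.34, 7.12-fold). Il1a had 83.3, 65.1, 46.7 and 119 CPM in the LPS libraries, against 18.4, 28.0, 18.5 and 29.4 CPM in the PBS libraries (1.73 ± 0.41). LPS 4 was the highest library for all 3 cytokines, and their groups did not overlap. Il1rn, the natural antagonist of the IL-1 receptor, rose together with its ligands, at 232, 143, 144 and 159 CPM in the LPS libraries, against 7.74, 13.6, 20.5 and 12.5 CPM in the PBS libraries (3.63 ± 0.48), with LPS 1 highest.

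Il6 was present at low levels, 13.1, 12.7, 10.4 and 11.6 CPM in the LPS libraries, against 6.03, 3.46, 10.7 and 7.43 CPM in the PBS libraries, and did not pass (adjusted p = 0.056). It passed without PBS 3 (1.08, adjusted p = 0.0145). Of 10 tested signalling genes downstream of the TNF receptors 7 rose and none fell. They were Birc3 (3.55 ± 0.24), Birc2 and the caspase-8 inhibitor Cflar (1.59 ± 0.10), which limit cell death, the kinase Ripk1 (1.15 ± 0.09), and Ripk3, Mlkl and Casp8, which carry out cell death. The call for Casp8 was lost without PBS 4 (0.31, adjusted p = 0.0617), LPS 1 (0.33, adjusted p = 0.0502), LPS 2 (0.32, adjusted p = 0.0574) or both numbered 1 (0.32, adjusted p = 0.0907), and with library totals alone (0.25, adjusted p = 0.0853). Cd40, a receptor for T cell help, rose 3.76-fold and Tnfsf9, the ligand of 4-1BB, 5.71-fold. Tnfsf10, which encodes the death ligand TRAIL, fell (-0.99 ± 0.26). Of 14 tested inflammasome and pyroptosis genes 5 rose and 3 fell. Casp4, whose product senses LPS inside the cell, rose 2.17-fold, and Mefv (0.91 ± 0.11), Casp1 (0.66 ± 0.11) and the sensor Nlrp3 (0.65 ± 0.12) rose by less. The pore-forming Gsdme fell (-0.83 ± 0.15).

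Chemokines, secreted proteins that draw leukocytes, gave some of the largest changes. Of 9 tested CXC chemokines 7 rose and none fell, and of 10 tested CC chemokines 7 rose and 1 fell (none without PBS 3 or without LPS 4). Cxcl10, an interferon-induced ligand for T cells, had 520.1, 468, 353 and 493 CPM in the LPS libraries, against 17.1, 10.9, 19.8 and 19.1 CPM in the PBS libraries (4.77 ± 0.30, adjusted p = 2.12e-08). Cxcl11, a ligand of the same receptor, had 199.9, 150.4, 129 and 167 CPM in the LPS libraries, against 3.11, 1.42, 2.75 and 4.24 CPM in the PBS libraries (5.78 ± 0.46). LPS 3 was the lowest LPS library for both and still stood above every PBS library. The neutrophil-attracting ligands rose as well. Cxcl1 had 109, 42.0, 64.0 and 193 CPM in the LPS libraries, against 2.92, 1.30, 0.786 and 1.90 CPM in the PBS libraries (5.90 ± 0.57) and Cxcl2 had 54.0, 19.4, 29.6 and 59.5 CPM in the LPS libraries, against 2.35, 1.87, 0.590 and 1.00 CPM in the PBS libraries (4.84 ± 0.41), with LPS 4 highest for both. Cxcl3 was at 50.1, 10.5, 14.9 and 42.3 CPM in the LPS libraries and at 0.381, 0, 0 and 0.149 CPM in the PBS libraries (7.82 ± 0.78, and 8.80 without PBS 1). Cxcl16, a membrane-bound chemokine, rose 2.76-fold.

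The monocyte attractant Ccl2 had 396, 160.2, 118 and 308 CPM in the LPS libraries, against 15.5, 17.0, 7.37 and 16.4 CPM in the PBS libraries (4.12 ± 0.44, 17.4-fold), and its neighbour in function Ccl7 had 249.9, 125, 72.3 and 157 CPM in the LPS libraries, against 5.96, 5.33, 6.09 and 10.0 CPM in the PBS libraries (4.45 ± 0.44). LPS 1 was the highest library for both, and the groups did not overlap. Ccl3 rose 6.67-fold, Ccl4 3.96-fold and Ccl5 4.70-fold (adjusted p = 0.00572). Ccl17, an attractant of T cells, rose 37.5-fold, with 111, 101, 83.3 and 105 CPM in the LPS libraries, against 2.16, 4.48, 0.737 and 3.27 CPM in the PBS libraries. Ccl22, which shares its receptor, rose by 4.41 ± 0.74, and by 5.66 without PBS 2, the PBS library with the highest level. Ccl24, an eosinophil attractant of alternatively activated macrophages, was the chemokine that fell (-1.76 ± 0.51, adjusted p = 0.016). Its call was lost without PBS 3 (-1.52, adjusted p = 0.0528) and without LPS 4 (-1.66, adjusted p = 0.0512).

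Of 10 tested chemokine receptors 3 rose and 1 fell (2 without LPS 1). Cxcr2, the receptor for Cxcl1 and Cxcl2, had 111, 64.6, 110.3 and 86.8 CPM in the LPS libraries, against 2.98, 3.91, 2.70 and 2.71 CPM in the PBS libraries (4.92 ± 0.39, 30.3-fold). It is also a defining gene of neutrophils, whose markers were higher in the LPS libraries and highest in LPS 1. The part of these cells in its rise was not tested. Ccrl2, a receptor that presents chemerin, rose 2.74-fold. Cx3cr1, the fractalkine receptor of microglia, fell, as described with the microglial genes.

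**Figure D3:**
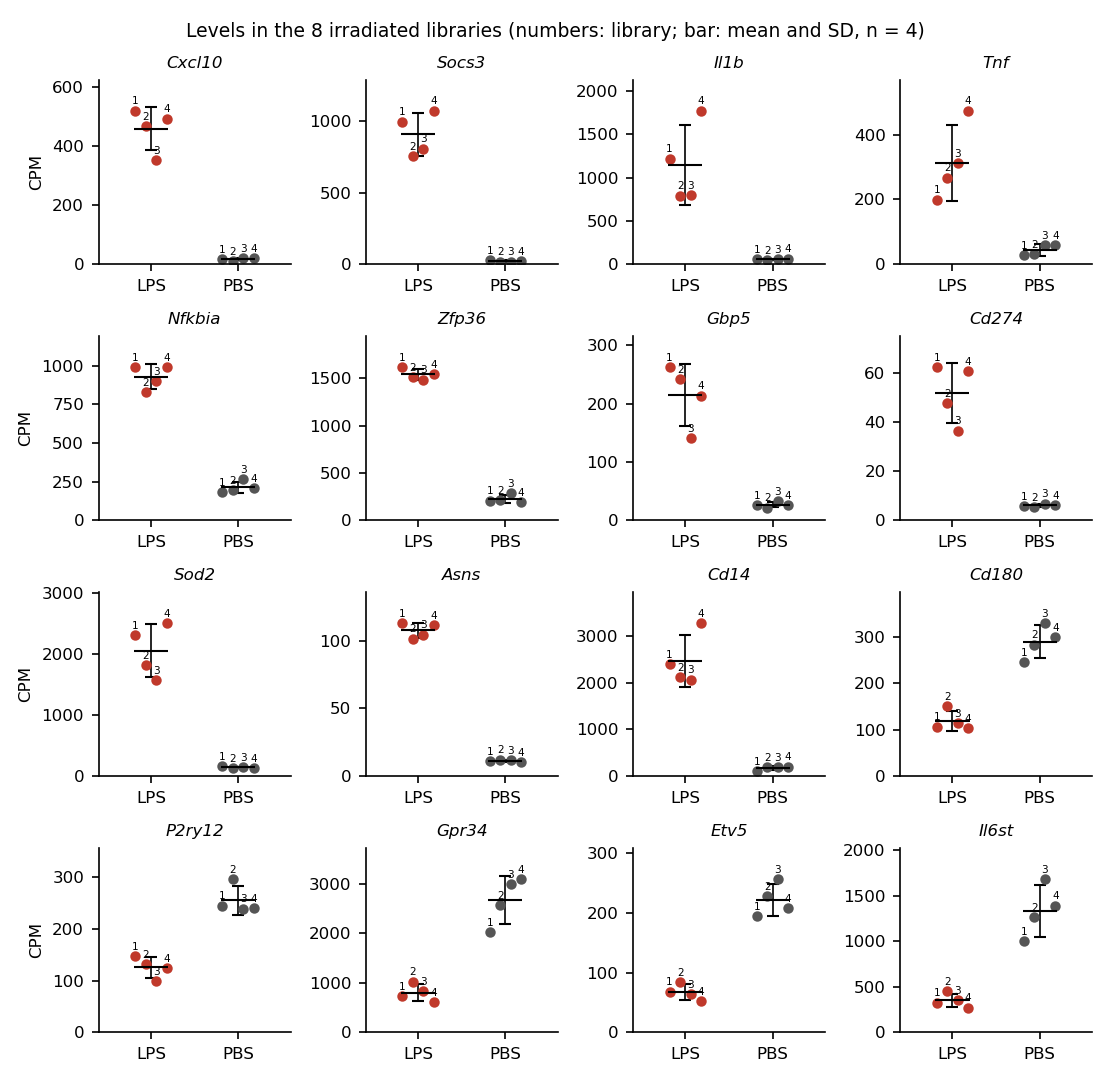
Level (CPM, vertical axes starting at 0) of 16 genes in each irradiated library, LPS on the left in red and PBS on the right in grey, with the library number beside each point and the mean and SD of 4 libraries as bars. In every panel the LPS and PBS libraries are apart, LPS above PBS in the first 11 genes from Cxcl10 to Cd14 and below it in Cd180, P2ry12, Gpr34, Etv5 and Il6st.

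In cytokine signalling through STAT3, the transcription factor Stat3 rose and the shared receptor chain Il6st fell. Of 10 tested feedback genes 6 rose, Socs3, Socs1, Socs4 and Cish among them, Socs6 fell, and Socs2, Socs5 and Socs7 did not pass. Socs7 passed without PBS 1 (0.69, adjusted p = 0.0189). Socs3, which blocks signalling from the IL-6 receptor chain, had 996, 755, 808 and 1073 CPM in the LPS libraries, against 29.1, 16.9, 17.1 and 19.2 CPM in the PBS libraries (5.47 ± 0.23, 44.3-fold, adjusted p = 8.37e-11). Stat3 had 863, 916, 837 and 990.1 CPM in the LPS libraries, against 206, 215, 248 and 201 CPM in the PBS libraries (2.05 ± 0.09). Il6st, the gp130 chain that transmits IL-6 and related cytokines, had 328, 450.1, 354 and 272 CPM in the LPS libraries, against 999, 1263, 1681 and 1390.4 CPM in the PBS libraries, 3.80-fold lower with LPS (-1.93 ± 0.19). The groups were far apart in all 3 genes. Ptpn1, a phosphatase that acts on JAK kinases, had the smallest p of the list (967, 869.9, 932 and 1053 CPM in the LPS libraries, against 205, 179.9, 183 and 179 CPM in the PBS libraries, adjusted p = 1.25e-12). Pim1, a kinase induced by STATs, rose 14.0-fold and Stat5b rose 2.04-fold. Il10, an anti-inflammatory cytokine that signals through STAT3, was low in all libraries, with 7.31, 3.43, 3.02 and 12.8 CPM in the LPS libraries, against 0.508, 0.0567, 0.197 and 0.335 CPM in the PBS libraries (4.58 ± 0.79, adjusted p = 0.000193). Of 28 tested members 16 rose and 5 fell, and 3 of the 5 receptors were among those that fell.

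Cish, a SOCS family inhibitor induced by STAT5, rose 23.3-fold, with 36.1, 23.7, 20.5 and 29.9 CPM in the LPS libraries, against 2.22, 0.454, 0.491 and 1.56 CPM in the PBS libraries (4.54 ± 0.63). Its promoter is shown for the STAT motif TTCNNNGAA, in capitals, in the 250 bases before the start (GRCr8, chr8:116850719-116850968, plus strand, from RefSeq).
Cish: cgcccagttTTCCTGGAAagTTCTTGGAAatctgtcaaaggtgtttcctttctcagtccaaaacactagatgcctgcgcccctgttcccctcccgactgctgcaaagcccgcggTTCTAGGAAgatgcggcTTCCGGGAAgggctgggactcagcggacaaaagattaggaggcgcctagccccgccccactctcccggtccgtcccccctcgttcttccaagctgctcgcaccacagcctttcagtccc
It holds 4 matches, between 241 and 119 bases before the start. The motif reads the same on both strands. It was found in 2 of 13 promoters of risen list members (15.4%), against 7.52% of all promoters and 6.07% of those of tested genes.

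Immediate early genes, which cells transcribe within minutes of a stimulus, rose in 16 of 25 tested cases and fell in none, with a median of 1.34. Batf, an AP-1 factor, rose 6.10-fold, Cebpb 8.59-fold, Ier3 3.09-fold, Myc 3.07-fold and Klf6 1.79-fold. Egr1 had 45.5, 17.4, 31.7 and 32.0 CPM in the LPS libraries, against 16.6, 12.3, 11.8 and 8.21 CPM in the PBS libraries (1.37 ± 0.28), with LPS 2 the lowest LPS library and only just above PBS 1. Of 9 tested genes that limit the life of messenger RNAs 4 rose and 2 fell. Zfp36, which encodes tristetraprolin, a protein that marks AU-rich messengers such as Tnf for decay, had 1623, 1513, 1486 and 1548 CPM in the LPS libraries, against 206, 209.5, 283 and 189 CPM in the PBS libraries (2.80 ± 0.12, 6.95-fold). LPS libraries were within a narrow range and far above PBS libraries. Zfp36l1 (2.39-fold) and the RNase gene Zc3h12a (2.82-fold) rose and Zfp36l2 fell (-0.63 ± 0.15). Dusp16, a phosphatase of MAP kinases, rose 3.52-fold. In this list of 13 tested genes 7 rose and 2 fell, and 1 fell without any 1 library other than PBS 2 and LPS 3.

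Glucocorticoid-responsive genes rose in 11 of 17 tested cases and fell in 2 (1 fell without any 1 library other than LPS 3), with a median of 1.57. Fkbp5, a chaperone of the glucocorticoid receptor and a standard readout of its activity, had 75.1, 64.0, 91.2 and 63.2 CPM in the LPS libraries, against 9.14, 4.20, 3.29 and 2.86 CPM in the PBS libraries (3.94 ± 0.33, 15.4-fold). PBS 1 was the highest PBS library, well below all LPS libraries. Tgm2, a transglutaminase gene, rose 19.2-fold. The metallothionein gene Mt2A was at 38.7, 25.4, 20.6 and 39.4 CPM in the LPS libraries and at 1.08, 0.227, 0.246 and 0.112 CPM in the PBS libraries (6.33 ± 0.48, and 7.33 without PBS 1). Nr3c1, the receptor itself, fell (-0.72 ± 0.14). Tsc22d3, another classical target, did not pass (0.49 ± 0.24, adjusted p = 0.14). Several genes of this list are also known to answer to cytokines.

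The type I interferon response was broad. Of 67 tested members 42 rose, 4 fell and 21 did not pass, with a median of 1.16. Effectors rose in 30 of 47 cases, regulators in 6 of 10 and sensors in 6 of 10. Ifnb1 itself had too few counts to be tested, with 5, 24, 0 and 2 counts in the LPS libraries, against 0, 0, 0 and 4 counts in the PBS libraries. Irf7, a factor that amplifies interferon production, had 571, 480.3, 321 and 426 CPM in the LPS libraries, against 136, 103, 106 and 111 CPM in the PBS libraries (1.98 ± 0.43). Ifit3, an effector that binds viral RNA complexes, had 1033, 973, 439 and 503 CPM in the LPS libraries, against 59.8, 34.7, 42.5 and 53.6 CPM in the PBS libraries (3.95 ± 0.60), and its relative Ifit2 had 836, 846, 564 and 529 CPM in the LPS libraries, against 73.3, 54.6, 69.6 and 71.2 CPM in the PBS libraries (3.37 ± 0.49). For these 3 genes the groups did not overlap, and in the Ifit genes LPS 1 and LPS 2 were well above LPS 3 and LPS 4.

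Irf1 had 355, 374, 453 and 552 CPM in the LPS libraries, against 70.7, 70.7, 102 and 94.8 CPM in the PBS libraries (2.36 ± 0.17, 5.13-fold), with LPS 3 and LPS 4 highest, the opposite order of libraries. Parp9 (1.43 ± 0.09), Stat2 (1.36 ± 0.11), Samd9 (1.79 ± 0.15), the receptor chain Ifnar2 (0.95 ± 0.08) and the interferon antagonist Usp18 (2.34 ± 0.43) rose, and Rsad2, which encodes viperin, rose 5.17-fold (adjusted p = 0.00311). Tlr9, a receptor for unmethylated DNA, had the largest decrease of the list (-1.56 ± 0.26).

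Guanylate-binding proteins and related GTPases, which attack vacuoles that hold microbes and are induced mostly by interferon-gamma, rose in 7 of 8 tested cases. Gbp5 had 263, 241, 141 and 214 CPM in the LPS libraries, against 25.8, 21.5, 32.5 and 26.1 CPM in the PBS libraries (3.02 ± 0.21, 8.11-fold). Gbp2 had 477, 476, 338 and 495 CPM in the LPS libraries, against 116, 116, 146 and 123 CPM in the PBS libraries (1.84 ± 0.18). Gbp7 had 426, 503, 469.8 and 529.8 CPM in the LPS libraries, against 98.2, 89.1, 88.7 and 79.7 CPM in the PBS libraries (2.44 ± 0.12). Groups were apart for all 3, with LPS 3 the lowest LPS library for Gbp5 and Gbp2. Igtp rose 3.58-fold and Irgm 3.94-fold.

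Promoters of 3 genes that rose are shown for the motif bound by interferon-activated complexes (ISRE), searched on either strand as GAAA and again GAAA with any 2 bases between them, and, in Cxcl10 and Gbp5, for the NF-kB consensus. They are the 250 bases before the start in RefSeq (GRCr8), for Cxcl10 chr14:15988816-15989065, plus strand, for Gbp5 chr2:233910749-233910998, plus strand and for Ifit3 chr1:241527076-241527325, plus strand. Capitals mark the matches.
Cxcl10: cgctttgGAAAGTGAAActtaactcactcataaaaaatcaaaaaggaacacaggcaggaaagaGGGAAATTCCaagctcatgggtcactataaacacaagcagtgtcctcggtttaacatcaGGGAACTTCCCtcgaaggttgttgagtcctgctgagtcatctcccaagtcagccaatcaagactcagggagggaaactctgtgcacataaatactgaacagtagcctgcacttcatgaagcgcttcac
Gbp5: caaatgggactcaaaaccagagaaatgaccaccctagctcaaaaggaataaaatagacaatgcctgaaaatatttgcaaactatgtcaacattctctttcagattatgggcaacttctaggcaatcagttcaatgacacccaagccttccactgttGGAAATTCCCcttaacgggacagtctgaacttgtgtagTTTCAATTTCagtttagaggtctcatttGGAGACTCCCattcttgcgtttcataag
Ifit3: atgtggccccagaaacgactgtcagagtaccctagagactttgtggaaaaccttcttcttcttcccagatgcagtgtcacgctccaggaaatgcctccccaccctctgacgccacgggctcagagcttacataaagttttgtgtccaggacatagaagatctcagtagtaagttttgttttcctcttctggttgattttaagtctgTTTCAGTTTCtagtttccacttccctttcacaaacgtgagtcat
The ISRE match lies 243 bases before the start in Cxcl10, 56 in Gbp5 and 44 in Ifit3. Cxcl10 has 3 NF-kB matches, 2 of them overlapping, the farthest 187 and the nearest 127 bases before the start, and Gbp5 has 2, at 94 and 28 bases. The ISRE motif was found in 16 of 34 promoters of risen interferon genes (47.1%) and in 6 of 15 promoters of the members that were not called (40%), against 3.29% of all promoters and 2.63% of those of tested genes. NF-kB matches were found in 4 of 6 promoters of risen CXC chemokines (66.7%), against 0 of 2 not called. They were found in 3 of 18 of risen genes of the TNF and IL-1 list (16.7%) against 2 of 6 of its members not called (33.3%), and in 5 of 34 of risen interferon genes (14.7%) against 4 of 15 not called (26.7%). For CC chemokines the counts were 1 of 3 risen and 1 of 2 not called, and for the STAT3 list 3 of 13 risen and 1 of 4 not called.

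Of 17 tested genes of MHC class I presentation 6 rose and 1 fell. Tap1, the peptide transporter of MHC class I, had 333, 346, 383 and 509 CPM in the LPS libraries, against 78.7, 92.6, 82.9 and 85.3 CPM in the PBS libraries (2.21 ± 0.14, 4.63-fold), and Nlrc5, the activator of class I genes, rose 4.20-fold. Psmb9 (0.54 ± 0.12) and Psme2 (0.54 ± 0.11) of the immunoproteasome rose, whereas RT1-M3-1 fell (-0.51 ± 0.11). B2m, the light chain of class I molecules, had 1216, 1436, 1298 and 1249 CPM in the LPS libraries, against 1028, 1041, 1180.3 and 1132 CPM in the PBS libraries, and its adjusted p of 0.0544 missed the threshold. It passed without PBS 3 (0.29, adjusted p = 0.0496) and without LPS 1 (0.28, adjusted p = 0.0457). Of 15 tested class II genes 1 rose, and none fell. Without LPS 1, 3 rose. The member that rose was Marchf1, which encodes a ubiquitin ligase that removes class II molecules from the surface (236, 269, 309 and 298 CPM in the LPS libraries, against 141, 146, 119 and 109 CPM in the PBS libraries, 1.11 ± 0.10). Cd74, the invariant chain, had 9289, 7897, 9599.8 and 9037 CPM in the LPS libraries, against 10326, 9157, 10507 and 10275 CPM in the PBS libraries (-0.17 ± 0.15, adjusted p = 0.428), and its groups overlapped.

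Molecules that steer T cells rose in 10 of 14 tested cases and fell in 1. Cd274, the gene of the checkpoint ligand PD-L1, had 62.4, 47.5, 36.4 and 60.7 CPM in the LPS libraries, against 5.71, 5.39, 6.73 and 6.10 CPM in the PBS libraries (3.11 ± 0.21, 8.63-fold). Icam1, an adhesion molecule, had 301, 272, 279 and 387 CPM in the LPS libraries, against 73.3, 82.9, 92.1 and 75.7 CPM in the PBS libraries (1.93 ± 0.12). LPS 3 was the lowest LPS library for Cd274 and LPS 4 the highest for Icam1, and neither gene's groups overlapped. The co-stimulatory ligands Cd80 (1.09 ± 0.17) and Cd86 (0.91 ± 0.09) rose by less, and Vsir, which encodes the inhibitory molecule VISTA of resting myeloid cells, fell (-0.61 ± 0.08).

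Nitric oxide and itaconate enzymes belong to the macrophage response to LPS. Nos2, the inducible nitric oxide synthase, was at 465, 135, 106 and 206 CPM in the LPS libraries, with LPS 1 highest, and at 5.90, 0.567, 0 and 1.45 CPM in the PBS libraries, with PBS 1 highest. Its log2 fold change was 6.93 ± 0.85, and it was 8.27 without PBS 1, 6.32 without LPS 1 and 7.68 without both. Acod1, which makes itaconate, had 45.0, 25.9, 27.9 and 59.2 CPM in the LPS libraries, against 0.888, 0.454, 0.0983 and 0.260 CPM in the PBS libraries (6.61 ± 0.60). Gch1, which supplies the cofactor of nitric oxide synthase, rose 5.64-fold, and Slc7a2, an arginine transporter, rose 13.7-fold. Ass1, which regenerates arginine, rose by 4.18 ± 0.48, and by 4.87 without PBS 3. Afmid, an enzyme of tryptophan breakdown, fell (-0.83 ± 0.14). In this list 8 of 17 tested genes rose and 3 fell.

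Subunits of the phagocyte NADPH oxidase moved in different directions. Ncf4 rose (323, 374, 388 and 426 CPM in the LPS libraries, against 136, 143, 157 and 154 CPM in the PBS libraries, 1.36 ± 0.16), Ncf1 fell (185, 177, 147 and 180.3 CPM in the LPS libraries, against 264, 297, 269 and 252 CPM in the PBS libraries, -0.65 ± 0.09), and the proton channel Hvcn1, which balances the charge of the oxidase, fell (-0.69 ± 0.09). Of the 8 tested genes of the oxidase and of nitric oxide synthesis 4 rose and 2 fell. Of the antioxidant genes, Sod2, the mitochondrial superoxide dismutase and a target of NF-kB, had 2321, 1821, 1573 and 2516 CPM in the LPS libraries, against 166, 138, 146 and 139.9 CPM in the PBS libraries (3.80 ± 0.18, 14.0-fold). Nfe2l2, which encodes NRF2, rose 2.95-fold and the thioredoxin reductase Txnrd1 3.69-fold. Gpx1 (-0.51 ± 0.10) and catalase, Cat (-0.63 ± 0.13), fell. Hmox1, a classical NRF2 target, had 203, 188, 355 and 311 CPM in the LPS libraries, against 160.1, 201, 180.3 and 179 CPM in the PBS libraries (adjusted p = 0.0693), with LPS 3 and LPS 4 well above and LPS 2 within the PBS libraries. It passed without LPS 1 (0.66, adjusted p = 0.0436) and without LPS 2 (0.68, adjusted p = 0.0257). Of 21 tested genes of this list 7 rose and 3 fell.

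Of 14 tested genes of iron handling 9 rose and 2 fell (1 fell without PBS 2 or without LPS 4), and the risen ones included 5 of 6 transport genes. Tfrc, the transferrin receptor, rose 2.58-fold, the ferrireductase Steap4 3.47-fold, with 270.2, 304, 353 and 351 CPM in the LPS libraries, against 80.3, 86.9, 89.6 and 112 CPM in the PBS libraries, and the iron transporter Slc11a2 3.16-fold. The ferroxidase Cp rose 2.23-fold. Lcn2, which binds bacterial iron carriers and is also a neutrophil marker, had 123, 23.7, 33.1 and 44.2 CPM in the LPS libraries, against 2.41, 0.567, 0.393 and 0.595 CPM in the PBS libraries (5.89 ± 0.71). It was 5.14 without LPS 1 and 6.72 without PBS 1.

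Glycolytic genes rose in part. Hif1a, the factor that drives glycolysis under low oxygen and in activated macrophages, had 378, 338, 312 and 404 CPM in the LPS libraries, against 128, 139, 144 and 130.4 CPM in the PBS libraries (1.40 ± 0.09, 2.64-fold). The glucose transporter Slc2a1 had 159, 134, 125 and 209 CPM in the LPS libraries, against 56.8, 42.9, 49.6 and 43.0 CPM in the PBS libraries (1.71 ± 0.16). Lactate dehydrogenase, Ldha, had 647, 663, 830.5 and 806 CPM in the LPS libraries, against 286, 281, 295 and 311 CPM in the PBS libraries (1.33 ± 0.13). Groups were apart in all 3. Pfkfb3, which activates glycolysis, rose 3.93-fold and Gapdh 1.63-fold, whereas Pfkfb4 fell (-0.84 ± 0.17). Hk2, the inducible hexokinase, had 245, 272, 281 and 285 CPM in the LPS libraries, against 266, 294, 262 and 244 CPM in the PBS libraries, with overlapping groups (adjusted p = 0.864). Of 26 tested members 12 rose and 2 fell, and 1 fell without PBS 2, PBS 3, LPS 1, LPS 2 or LPS 4. Nuclear genes of oxidative phosphorylation were mostly not called, with 6 of 49 higher and 3 lower, a share below that of all genes. With library totals alone 2 were higher. Cytochrome c, Cycs, rose 2.03-fold, Cyc1 by 0.33 ± 0.08, and the complex I gene Ndufb10 fell (-0.39 ± 0.10).

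Genes of cholesterol synthesis and uptake rose in 8 of 23 tested cases and fell in 2. Sqle, an enzyme of the pathway, rose 2.25-fold, Idi1 2.85-fold and Hmgcs1 1.66-fold, while Scap, which escorts the controlling factor, fell (-0.63 ± 0.18). Ch25h, whose product 25-hydroxycholesterol restrains cholesterol synthesis and viral entry, had 2648, 2909, 3226 and 3659.6 CPM in the LPS libraries, against 359.5, 336, 408 and 268 CPM in the PBS libraries (3.18 ± 0.29, 9.07-fold). The efflux pump Abcg1 fell (-0.89 ± 0.11), the storage enzyme Soat1 rose (0.88 ± 0.13), and Hilpda and Acsl4, genes of lipid droplets and fatty acid activation, rose 2.29-fold and 2.09-fold. G0s2, an inhibitor of lipid droplet breakdown, fell (-2.32 ± 0.56). In this list of oxysterol, efflux and lipid droplet genes 7 of 23 rose and 3 fell.

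Genes of the response to amino acid shortage were among those that rose. Asns, asparagine synthetase, had 113, 101, 104 and 111 CPM in the LPS libraries, against 11.4, 12.4, 11.7 and 10.5 CPM in the PBS libraries (3.23 ± 0.33, 9.36-fold), and its controlling factor Atf4 had 172, 197, 220.3 and 234 CPM in the LPS libraries, against 74.9, 85.0, 89.2 and 90.3 CPM in the PBS libraries (1.28 ± 0.10). Both groups were narrow and apart. Chac1 rose 15.8-fold and the amino acid transporter chain Slc3a2 1.77-fold, while Vldlr fell (-1.59 ± 0.18). In the list of 26 tested genes of unfolded protein and amino acid stress 9 rose and 5 fell.

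Proteasome subunits rose together by small amounts, with 19 of 32 higher, none lower and none at least 2-fold. Psma6 had 224, 243, 272 and 238 CPM in the LPS libraries, against 137, 159.8, 158 and 171 CPM in the PBS libraries (0.64 ± 0.09), Psmc1 rose by 0.56 ± 0.09, Psma3 by 0.50 ± 0.08, Psmd12 by 0.50 ± 0.10 and Psmd1 by 0.46 ± 0.09. The count of higher members was 12 with library totals alone. Cytosolic ribosomal protein genes were mostly not called, with 5 of 50 higher and none lower, and Rps9 had the smallest p (0.43 ± 0.09). The number higher was 3 without PBS 1 or PBS 2, 2 without PBS 3, PBS 4 or LPS 2, and 1 without LPS 4. Lysosomal genes fell in 11 of 43 tested cases and rose in 5. Naglu (-0.61 ± 0.10) and Lipa (-0.54 ± 0.10) fell, and Neu1 (1.23 ± 0.15), the tetraspanin Cd63 (0.70 ± 0.11) and the proton pump gene Atp6v1a (0.77 ± 0.12) rose. The number of lower members was 7 without PBS 2, PBS 3, LPS 1 or LPS 4 and 19 with library totals alone.

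Few proliferation genes were called. Of 41 tested cell cycle genes 2 rose and 4 fell. Mki67, a marker of cycling cells, had 11.6, 16.2, 13.5 and 9.87 CPM in the LPS libraries, against 20.8, 19.6, 16.2 and 14.2 CPM in the PBS libraries (adjusted p = 0.267), and LPS 2 exceeded PBS 4. The mitotic kinase Ttk fell (9.61, 18.1, 13.0 and 13.7 CPM in the LPS libraries, against 27.2, 35.6, 37.9 and 38.2 CPM in the PBS libraries, -1.34 ± 0.16), as did Mcm7 (-0.67 ± 0.15), while Mcm4 (0.75 ± 0.15) and Pcna (0.39 ± 0.10) rose. Among 23 tested p53 targets 7 rose and 5 fell. The number higher was 4 without LPS 1, and the number lower was 3 without PBS 3, LPS 1, LPS 2 or LPS 4. Pmaip1, which encodes the death-promoting protein NOXA, had 109, 66.1, 94.7 and 104 CPM in the LPS libraries, against 7.61, 12.3, 11.9 and 12.3 CPM in the PBS libraries (3.07 ± 0.32, 8.42-fold). Btg2, a brake on proliferation, had 148, 142, 126 and 179 CPM in the LPS libraries, against 45.3, 41.3, 47.4 and 50.5 CPM in the PBS libraries (1.69 ± 0.11), and the kinase Plk2 rose 2.40-fold. Tp53inp1 had 2.04, 3.61, 1.40 and 1.83 CPM in the LPS libraries, against 18.1, 21.0, 25.5 and 19.5 CPM in the PBS libraries (9.32-fold lower), and Sesn1 fell 3.36-fold.

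Cdkn1a, the gene of the cell cycle inhibitor p21, had 94.1, 67.5, 63.3 and 72.1 CPM in the LPS libraries, against 43.1, 24.7, 64.0 and 50.1 CPM in the PBS libraries (0.70 ± 0.23, adjusted p = 0.0283). LPS 3 lay just below PBS 3, so the groups overlapped. The call was lost without PBS 1 (0.68, adjusted p = 0.0593), without PBS 2 (0.50, adjusted p = 0.0656), without LPS 1 (0.57, adjusted p = 0.0897) and without both numbered 1 (0.55, adjusted p = 0.145), and also with library totals alone (0.59, adjusted p = 0.0577) and in a fit of the irradiated libraries only (0.70, adjusted p = 0.0562). Of 16 tested secreted factors linked to senescence 8 rose and none fell. Timp1, an inhibitor of matrix proteases, rose 3.20-fold and Csf1, the growth factor of microglia, 4.56-fold. Plau, the urokinase gene, had 301, 314, 394 and 275 CPM in the LPS libraries, against 399, 287, 228 and 178 CPM in the PBS libraries and did not pass (adjusted p = 0.473).

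Homeostatic microglial genes, which mark the surveying state, fell in 16 of 29 tested cases and rose in 3, against 15.2% and 17.7% of all genes, with a median of -0.37. The number higher was 5 without PBS 3 or without LPS 1. P2ry12, a receptor for ADP through which microglia sense damage, had 148, 133, 99.2 and 125 CPM in the LPS libraries, against 245, 297, 239.9 and 241 CPM in the PBS libraries (-1.02 ± 0.18). Gpr34, a lipid receptor, had 735, 1026, 829 and 618 CPM in the LPS libraries, against 2026, 2573, 2992 and 3095 CPM in the PBS libraries (-1.74 ± 0.14, 3.33-fold lower). Cx3cr1 had 3880.5, 5899, 4872 and 4737 CPM in the LPS libraries, against 6858, 7922, 8359.8 and 7908 CPM in the PBS libraries (-0.68 ± 0.10). All LPS libraries were below all PBS libraries for these 3, with LPS 1 lowest for Cx3cr1 and LPS 4 for Gpr34. Adora3, an adenosine receptor, fell 3.36-fold, Trem2, a receptor for lipids and debris, 1.79-fold, the integrin Itgb5 1.87-fold and the transporter Slco2b1 1.70-fold.

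Tmem119, a marker of microglia against other macrophages, had 1198, 1434, 1416 and 1171 CPM in the LPS libraries, against 1462, 2519, 2293 and 1784 CPM in the PBS libraries (-0.63 ± 0.19, adjusted p = 0.0165). The call was lost without PBS 2 (-0.50, adjusted p = 0.0604), PBS 3 (-0.56, adjusted p = 0.0534), LPS 1 (-0.59, adjusted p = 0.0509) or LPS 4 (-0.58, adjusted p = 0.0533). Csf1r, the receptor on which microglia depend for survival, had 6753, 7890.4, 7543 and 7557 CPM in the LPS libraries, against 7489, 8516, 8758 and 7961 CPM in the PBS libraries and did not pass (adjusted p = 0.15). Gpr84, a receptor for medium-chain fatty acids that is induced by inflammation, was the list member that went furthest the other way (460.5, 671, 687 and 706 CPM in the LPS libraries, against 253, 276, 352 and 342 CPM in the PBS libraries, 1.05 ± 0.14), and the complement genes C1qb (0.42 ± 0.08) and C1qc (0.38 ± 0.09) also rose.

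Among transcription factors of microglial identity 4 of 15 fell and 1 rose (2 without PBS 4 or without LPS 1). Sall1, which holds microglia apart from other macrophages, had 90.6, 124, 119.7 and 111 CPM in the LPS libraries, against 165, 185, 182 and 189 CPM in the PBS libraries (-0.70 ± 0.10). Etv5 had 68.1, 84.3, 64.5 and 52.2 CPM in the LPS libraries, against 195, 227, 256 and 208 CPM in the PBS libraries (-1.72 ± 0.13, 3.29-fold lower) and Maf had 44.7, 46.3, 50.7 and 41.7 CPM in the LPS libraries, against 94.8, 93.8, 107 and 82.7 CPM in the PBS libraries (-1.05 ± 0.09). The groups were apart for all 3. Mef2c fell by less (-0.41 ± 0.10). Runx1, a factor of blood and myeloid development, had 186, 284, 104 and 113 CPM in the LPS libraries, against 64.9, 48.8, 52.7 and 42.7 CPM in the PBS libraries (1.72 ± 0.27), with LPS 2 highest.

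Of 26 tested genes known from primed or disease-associated microglia, 11 rose and 2 fell. The integrin Itgax rose 2.87-fold. Clec7a, which encodes dectin-1, had 772, 897, 883 and 684 CPM in the LPS libraries, against 612, 614, 410.4 and 362 CPM in the PBS libraries (0.70 ± 0.24, adjusted p = 0.0334). Its call was lost without PBS 3 (0.61, adjusted p = 0.0949), PBS 4 (0.57, adjusted p = 0.0938), LPS 1 (0.72, adjusted p = 0.0531), LPS 2 (0.63, adjusted p = 0.0772) or LPS 3 (0.65, adjusted p = 0.0762), with library totals alone (0.57, adjusted p = 0.0715) and with no filter on low counts (0.69, adjusted p = 0.0632). Apoe, a lipid carrier, had 11635, 11810, 11879 and 10262 CPM in the LPS libraries, against 12796, 11364, 15074 and 12448 CPM in the PBS libraries (adjusted p = 0.12), and Gpnmb, a glycoprotein of lysosome-rich macrophages, had 537, 538, 753 and 454 CPM in the LPS libraries, against 952, 835, 513 and 384 CPM in the PBS libraries (adjusted p = 0.535). Both had overlapping groups. The growth factor Igf1 (-0.86 ± 0.14) and the tetraspanin Cd9 (-0.86 ± 0.16) fell.

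Receptors for phagocytosis rose in 12 of 26 tested cases and fell in 3. Among the receptors for antibodies, Fcgr2a had 1987, 1845, 2006 and 2038 CPM in the LPS libraries, against 904, 1068, 1124 and 1099 CPM in the PBS libraries (0.91 ± 0.09) and the inhibitory Fcgr2b had 1221, 1399, 1768 and 1564 CPM in the LPS libraries, against 518, 634, 695 and 652 CPM in the PBS libraries (1.25 ± 0.13), without overlap. Trem1, an amplifier of inflammation, rose 8.41-fold and Treml2 2.82-fold. The scavenger receptor Colec12 fell (-0.92 ± 0.26). Of 19 tested complement genes 6 rose and 2 fell, both of them receptors for complement fragments, C3ar1 (-0.65 ± 0.11) and C5ar2 (-0.71 ± 0.08).

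Of 16 tested purine receptors and enzymes that act on extracellular nucleotides 5 rose and 5 fell, among them the enzyme genes Nt5e, which rose, and Entpd1, which fell. P2ry14, a receptor for UDP-glucose, rose 2.16-fold and P2ry2, a receptor for ATP and UTP, 4.26-fold, while P2ry13 (-0.77 ± 0.11) and Adora1 (-1.71 ± 0.24) fell with P2ry12 and Adora3. The prostaglandin receptors Ptger2 and Ptger4 rose 3.82-fold and 2.60-fold. Ptgs2, which encodes cyclooxygenase-2, was low, at 7.63, 2.15, 1.24 and 4.10 CPM in the LPS libraries, against 0.127, 0, 0.0983 and 0.0372 CPM in the PBS libraries (5.78 ± 0.94, and 5.19 without LPS 1). Ltc4s, the leukotriene C4 synthase (-0.72 ± 0.12), and Hpgds, a prostaglandin D synthase (-1.25 ± 0.24), fell. Of 16 tested prostaglandin and leukotriene genes 4 rose and 4 fell. Csf2rb, the shared receptor chain for GM-CSF, IL-3 and IL-5, had 576, 649, 725 and 925 CPM in the LPS libraries, against 108, 128, 114 and 85.7 CPM in the PBS libraries (2.73 ± 0.18, 6.62-fold), whereas Flt3 fell (-0.96 ± 0.27). Of the 9 tested genes of colony-stimulating factors and their receptors 3 rose and 1 fell. Of 21 tested genes of TGF-beta signalling, which maintains microglial identity, 4 fell (19%) and 1 rose. The share that fell was near the 15.2% of all tested genes. Without PBS 3, 1 fell, without both LPS 1 and PBS 1, 2 fell, and without PBS 2 or LPS 4, 2 rose. The receptor Tgfbr1 fell (1032, 1385, 1097 and 1064 CPM in the LPS libraries, against 1645, 2229, 1806 and 1879 CPM in the PBS libraries, -0.72 ± 0.10), and Skil, a repressor of the pathway, rose (0.98 ± 0.11). Of 27 ion channel genes 6 rose and 6 fell (22.2% each). Among those that rose were the chloride channel genes Clic4 (5.06-fold higher) and Clic1 (1.73-fold higher) and the volume-regulated channel gene Lrrc8a (3.56-fold higher). Calhm2, Kcna2 and Hvcn1, given above, were among those that fell.

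The sort kept cells with intermediate CD45, a gate that leaves out cells with high CD45 such as most blood leukocytes. Markers of such cells were nevertheless higher in the LPS libraries. Summed neutrophil markers were 2528, 631.9, 507 and 416.1 CPM in the LPS libraries, against 314.2, 253.5, 264.7 and 235.3 CPM in the PBS libraries, so LPS 1 was far above the rest and the other 3 LPS libraries still exceeded all PBS libraries. In LPS 4, most of the excess over the PBS libraries lay in Cxcr2 and Lcn2, whose levels are given above. Of 11 tested neutrophil markers 10 rose, against 4 without LPS 1 and 6 without LPS 1 and PBS 1. Mmp8, a collagenase of neutrophil granules, showed the pattern of LPS 1, with 161, 28.8, 13.0 and 2.76 CPM in the LPS libraries, against 2.41, 1.59, 0.983 and 0.966 CPM in the PBS libraries (5.13 ± 1.32, and 3.34 without LPS 1), and its call was lost without both LPS 1 and PBS 1 (3.67, adjusted p = 0.0619) and in limma voom with sample weights (3.68, adjusted p = 0.226). Mmp9 had 20.7, 4.08, 2.79 and 2.93 CPM in the LPS libraries, against 0.698, 0.510, 1.18 and 0.595 CPM in the PBS libraries (3.34 ± 0.91), and without LPS 1 its call was lost (2.13, adjusted p = 0.0855). Mpo, the defining enzyme of neutrophil granules, was listed at 0 in all 8 libraries, as was the immediate early gene Junb. What a 0 under a symbol reflects was not tested.

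Summed monocyte markers were 1171, 1019, 761.6 and 1191 CPM in the LPS libraries, against 541.4, 558.9, 686 and 655.1 CPM in the PBS libraries. Of 12 tested monocyte markers 6 rose and 1 fell (2 without LPS 1), and Ccr2, Itgal, Nr4a1, S100a4 and F10 did not pass. Plac8 had 332, 347, 253 and 395 CPM in the LPS libraries, against 97.6, 90.6, 159 and 134 CPM in the PBS libraries (1.46 ± 0.21), Vcan rose 21.3-fold, Cd44 2.54-fold, and the integrin Itga4 fell (-0.87 ± 0.21). Border-associated macrophage markers summed to 4438, 3238, 3921 and 3528 CPM in the LPS libraries, against 1631, 1669, 1711 and 1376 CPM in the PBS libraries, with 3 of 11 higher and 3 lower. Clec10a, a lectin receptor, accounted for most of the difference in this sum, with 2616, 1901, 2311 and 2168 CPM in the LPS libraries, against 474, 456, 409.9 and 379 CPM in the PBS libraries (2.39 ± 0.22), the mannose receptor Mrc1 rose 2.35-fold, and Cbr2 fell (-0.46 ± 0.09). The number of lower members was 1 without PBS 2 or without PBS 3.

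T and NK cell markers summed to 1309, 799.3, 774.1 and 1280 CPM in the LPS libraries, against 469.1, 398.2, 458.8 and 558.3 CPM in the PBS libraries. Of 19 tested markers 7 rose and 2 fell, and 1 fell without any 1 library other than PBS 4 and LPS 3. The cytotoxic genes Gzma (191, 93.9, 129.96 and 221 CPM in the LPS libraries, against 10.3, 6.52, 3.73 and 10.0 CPM in the PBS libraries, 4.37 ± 0.61) and Prf1 (523, 219.6, 272 and 512 CPM in the LPS libraries, against 35.7, 16.1, 26.2 and 29.7 CPM in the PBS libraries, 3.83 ± 0.63) were highest in LPS 1 and LPS 4. Gzmk rose 7.54-fold and Klrd1 4.27-fold, Nkg7, Klrb1a and Cd8a also rose, and Cd6 (-0.88 ± 0.12) and Cd5 fell. The T cell genes Cd3d, Cd3e and Cd3g did not pass, and neither did Cd2, Cd7, Cd8b, Lck, Zap70, Klrk1 and Tbx21. Ighm, the immunoglobulin mu chain, fell 3.95-fold, with 32.0, 27.8, 24.5 and 40.1 CPM in the LPS libraries, against 142, 93.7, 126 and 129.5 CPM in the PBS libraries, while the other 4 tested B and plasma cell markers did not pass. The part of these cells in the changes of genes that leukocytes share with microglia was not tested. Without LPS 1 and PBS 1, 3480 genes were called. The counts of higher members then were 17 of 23 for the NF-kB list, 7 of 9 for CXC chemokines, 35 of 67 for the interferon list and 10 of 14 for the list of checkpoint and co-stimulatory molecules, and 16 of 29 homeostatic genes were lower. Other lists moved more, with 4 of 23 p53 targets and 2 of 50 ribosomal protein genes higher and 1 of 49 oxidative phosphorylation genes lower.

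Markers of the other cells of brain tissue gave few calls. Endothelial and mural markers gave 1 higher call of 9 tested (Flt1, 2.36 ± 0.54) and oligodendrocyte markers 1 lower call of 8 (Mal, -1.31 ± 0.38). Astrocyte markers gave 1 lower call of 8 (Slc1a3, 243, 161, 276 and 137 CPM in the LPS libraries, against 386, 525, 442 and 339 CPM in the PBS libraries, -1.05 ± 0.28), and none of 10 neuronal and 3 red cell markers passed.

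**Figure D4:**
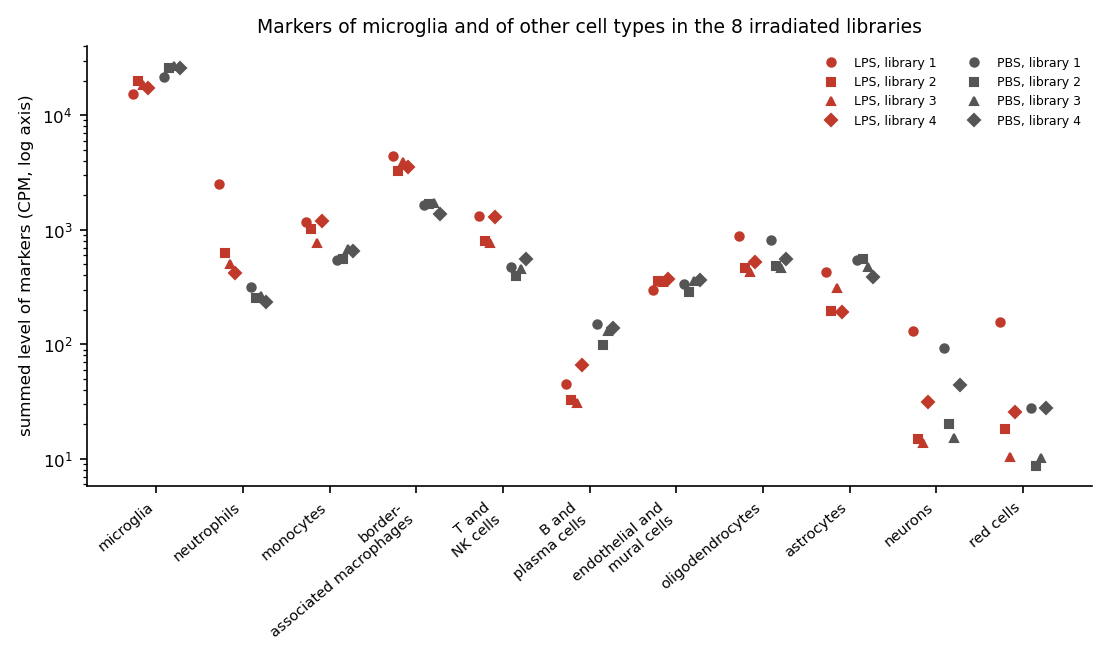
Summed level of the markers of each cell type (vertical axis, CPM on a log scale) in the 8 irradiated libraries, LPS in red left of PBS in grey, with a symbol for each library number. The sum is lower for microglial markers and higher for neutrophil, monocyte, border-associated macrophage and T and NK cell markers in all 4 LPS libraries than in all 4 PBS libraries, and LPS 1 and PBS 1 (circles) are the highest of their groups for neuronal markers.

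The response of irradiated rats was set against the response to LPS in sham-irradiated rats. Both sets of libraries differed in cell markers as well. In PBS libraries, summed microglial markers were 21570 to 27140 CPM in irradiated and 45980 to 49390 CPM in sham rats. Summed border-associated macrophage markers were 1376 to 1711 CPM and 410.2 to 482.8 CPM in the same order. Summed neutrophil markers were higher with LPS in irradiated rats. In sham rats they were 253.1 to 309 CPM with LPS and 330.4 to 415.9 CPM with PBS. The part of cell composition in the differences was not tested. In sham rats 3845 genes were called, 15.8% of the tested genes higher and 15.4% lower. Of the calls, 2623 had the same sign in both, 64.7% of the calls in irradiated rats and 68.2% of those in sham rats, and 26 had opposite signs. A call in irradiated rats that was missed in sham rats, as in 1402 genes, does not show that the responses differed. The difference itself was called for 170 genes, 83 more positive (0.674%) and 87 more negative (0.707%) in irradiated rats. Of these 170 genes 135 were also called for LPS in irradiated rats, against 32.9% of all tested genes. The difference contains the response of irradiated rats, so this overlap is partly built in. DESeq2 called 417 differences (176 more positive, 241 more negative). In edgeR the number called for the difference was 113 without LPS 4 or PBS 3, 112 without sham PBS 1, 107 without sham PBS 3 and 101 without both LPS 1 and PBS 1. In 29 genes the log2 fold change had the same sign in both and was larger in size in irradiated rats, and in 22 it was smaller.

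**Figure D5:**
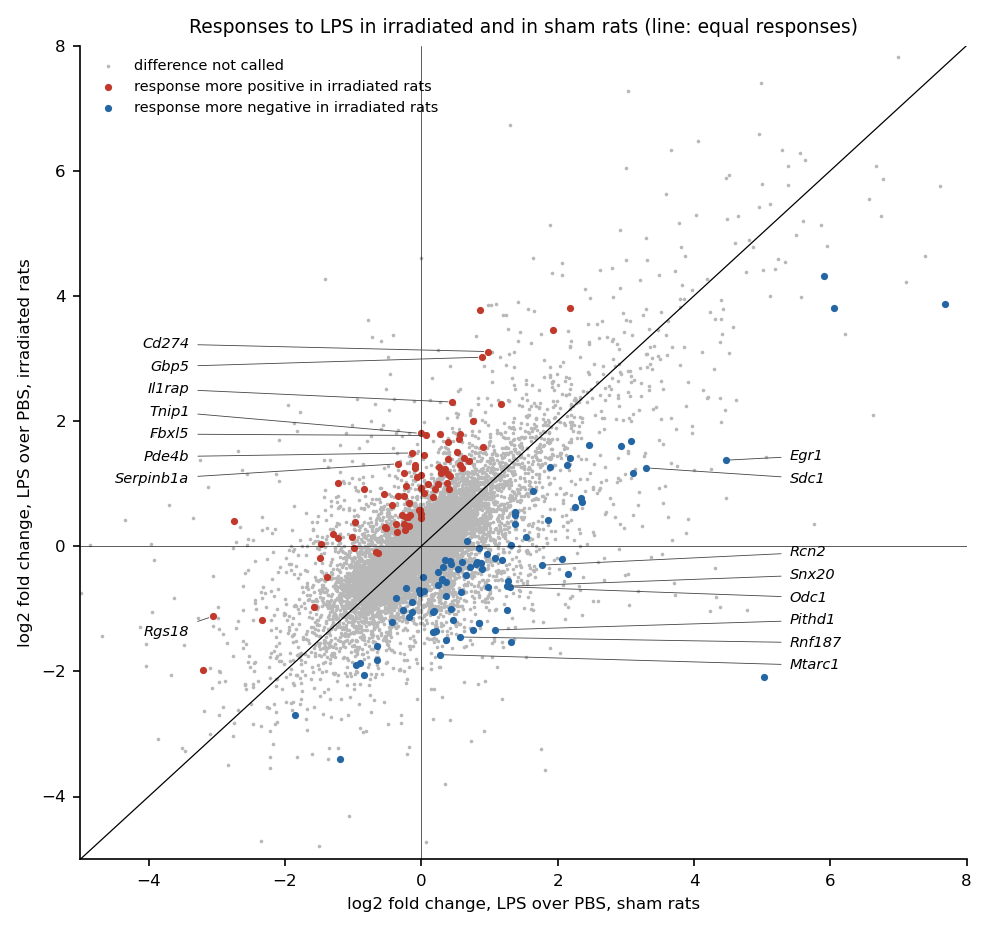
Log2 fold change of LPS over PBS in irradiated rats (vertical axis) against that in sham rats (horizontal axis), 1 point per gene, with 28 genes outside the axes. Red points are the 83 genes with a more positive and blue points the 87 with a more negative response in irradiated rats (edgeR adjusted p of the difference under 0.05), names mark the 8 largest differences in each direction among genes averaging 3 or more on the log2 CPM scale, and the line marks equal responses.

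Among genes averaging 3 or more on the log2 CPM scale, Cd274 and Gbp5 had the largest positive differences. Cd274 had 62.4, 47.5, 36.4 and 60.7 CPM with LPS and 5.71, 5.39, 6.73 and 6.10 CPM with PBS in irradiated rats, and 10.2, 14.4, 17.9 and 18.1 CPM with LPS and 6.72, 9.92, 7.26 and 6.81 CPM with PBS in sham rats. The log2 fold change was 3.11 ± 0.21 in irradiated rats and 0.98 ± 0.20 in sham rats, a difference of 2.13 ± 0.29 (edgeR adjusted p = 0.000835). Gbp5 differed by as much (3.02 ± 0.21 in irradiated rats and 0.89 ± 0.20 in sham rats, difference 2.13 ± 0.28). In both genes the sham LPS libraries lay above the sham PBS libraries but far below the irradiated LPS libraries.

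Of the 23 tested genes of the NF-kB list the difference was more positive in irradiated rats in 2 and more negative in 1 (Bcl3, -1.60 ± 0.35), and of the 34 of the TNF and IL-1 list it was more positive in 2. Il1rap, the shared chain of the IL-1 receptors, had 129, 74.2, 71.7 and 84.1 CPM with LPS and 23.9, 19.3, 16.2 and 13.5 CPM with PBS in irradiated rats, and 21.6, 31.3, 24.7 and 25.3 CPM with LPS and 22.2, 14.6, 21.9 and 16.5 CPM with PBS in sham rats (difference 1.85 ± 0.29). Tnip1 had log2 fold changes of 1.80 ± 0.17 in irradiated rats and -0.01 ± 0.17 in sham rats, and Tnfaip3 of 2.00 ± 0.18 and 0.76 ± 0.17 in the same order. The difference for Tnfaip3 (1.24 ± 0.24) was not called without LPS 1 and PBS 1 (1.03, adjusted p = 0.0529). Fbxl5, which encodes an iron-sensing ubiquitin ligase, differed by 1.69 ± 0.17, the phosphodiesterase Pde4b by 1.63 ± 0.23 and the protease inhibitor Serpinb1a by 1.66 ± 0.25. For Serpinb1a, LPS 1 was the highest library (684, 345, 352 and 316 CPM in irradiated LPS libraries).

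Several metabolic and receptor genes also responded more in irradiated rats. Sod2 differed by 1.63 ± 0.23, Steap4 by 1.52 ± 0.17, Slc2a1 by 1.15 ± 0.21, Slc11a2 by 1.27 ± 0.23, Slc7a2 by 2.91 ± 0.57, Hif1a by 0.77 ± 0.12 and Sqle by 0.88 ± 0.15. Steap4 had 199, 202, 262 and 215 CPM with LPS and 206, 167, 185 and 171 CPM with PBS in sham rats, where its change did not pass (adjusted p = 0.0927). Fcgr2b rose in irradiated rats and had 619, 699, 665 and 702 CPM with LPS and 929.5, 691, 616 and 619 CPM with PBS in sham rats (difference 1.34 ± 0.19). Fcgr2a differed by 0.71 ± 0.12, Ccrl2 by 1.42 ± 0.25 and Cflar by 0.69 ± 0.14. Rgs18, a regulator of G protein signalling, fell by less in irradiated rats (-1.12 ± 0.29) than in sham rats (-3.06 ± 0.35). That difference (1.94 ± 0.45, adjusted p = 0.0439) was not called without any single one of LPS 1 to 4, PBS 1, PBS 3, PBS 4, sham LPS 3 and 4 and sham PBS 1 to 3 (adjusted p between 0.0558 and 0.0872).

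On the other side, Egr1 had 45.5, 17.4, 31.7 and 32.0 CPM with LPS and 16.6, 12.3, 11.8 and 8.21 CPM with PBS in irradiated rats, and 139, 81.0, 85.4 and 109 CPM with LPS and 3.05, 4.35, 5.14 and 6.10 CPM with PBS in sham rats. Its log2 fold change was 1.37 ± 0.28 in irradiated rats and 4.47 ± 0.32 in sham rats (difference -3.09 ± 0.41, edgeR adjusted p = 0.000944). The irradiated LPS libraries were lower and the irradiated PBS libraries higher than their sham counterparts. Sdc1, a syndecan, had 55.1, 64.2, 50.0 and 68.5 CPM with LPS and 29.2, 31.2, 20.9 and 18.7 CPM with PBS in irradiated rats, and 21.6, 26.1, 49.3 and 23.7 CPM with LPS and 2.68, 2.76, 3.63 and 3.13 CPM with PBS in sham rats. It rose in both, and its log2 fold change was smaller in irradiated rats (difference -2.05 ± 0.34), whose PBS libraries started higher. Btg2 (-1.39 ± 0.16) and Pim1 (-2.24 ± 0.40) likewise rose in both with a smaller log2 fold change in irradiated rats.

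Rnf187, which encodes a ubiquitin ligase, changed in opposite directions, with -1.45 ± 0.19 in irradiated rats and 0.57 ± 0.19 in sham rats (difference -2.02 ± 0.27). It had 26.3, 16.7, 30.7 and 22.1 CPM with LPS and 65.2, 59.9, 67.3 and 69.0 CPM with PBS in irradiated rats, and 43.3, 47.7, 54.7 and 52.9 CPM with LPS and 21.0, 45.1, 36.4 and 31.5 CPM with PBS in sham rats. Odc1, the first enzyme of polyamine synthesis, had -0.65 ± 0.23 in irradiated rats and 1.31 ± 0.25 in sham rats (difference -1.96 ± 0.34), and Snx20, a sorting nexin, -0.64 ± 0.22 and 1.26 ± 0.22 in the same order (difference -1.90 ± 0.31). For Odc1 the decrease in irradiated rats was lost without PBS 1 (-0.54, adjusted p = 0.109), PBS 2 (-0.63, adjusted p = 0.0716), LPS 2 (-0.54, adjusted p = 0.105), LPS 3 (-0.70, adjusted p = 0.0503) or LPS 4 (-0.67, adjusted p = 0.0673), and for Snx20 without PBS 3 (-0.48, adjusted p = 0.125), PBS 4 (-0.62, adjusted p = 0.0608), LPS 1 (-0.65, adjusted p = 0.0504) or LPS 2 (-0.49, adjusted p = 0.0918). Mtarc1, a mitochondrial reductase, fell in irradiated rats (-1.73 ± 0.28) and did not pass in sham rats (0.27 ± 0.28), and the difference was called (adjusted p = 0.0141). The differences for Pithd1 (-2.42 ± 0.55) and Rcn2 (-2.07 ± 0.43) depended on single libraries. For Pithd1 the difference was not called without LPS 1, LPS 2, LPS 4, PBS 3, PBS 4, sham LPS 3, sham LPS 4 or sham PBS 1 to 3 (adjusted p between 0.0572 and 0.0788). For Rcn2 it was not called without LPS 1, LPS 2, LPS 4, PBS 3, PBS 4, sham LPS 4, sham PBS 3 or sham PBS 4 (adjusted p between 0.05 and 0.0677).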

How the data were processed

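RNA from sorted rat microglia was sequenced in 16 libraries, 4 per group of radiation and treatment, and the groups were taken from the labels. Reads were checked with FastQC 0.11.9, trimmed with fastp 0.23.2 and counted with HTSeq 2.0.2 on mRatBN7.2, per the submitters' processing notes, which give no order or settings. The aligner is not given in the sources used here. The authors deposited whole-number read counts per gene, as one table by symbol and one file per library by Ensembl identifier. Counts without a symbol were 1.85% to 2.28% of each library. Totals were 13990623 to 61435103 counts in the 8 irradiated libraries and 16257030 to 22063345 in the sham libraries. Intervals of counting error are small beside the spread between libraries.

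All 16 libraries were fitted with edgeR 4.0.16 in R 4.3.3 (quasi-likelihood, TMM, filterByExpr, robust, 1 coefficient per group). The same fit was also run on simulated counts, whose levels and spread were taken from these data. SE is the log2 fold change divided by the root of F. The alternatives were library totals alone, DESeq2 1.42.0 and its size factors in edgeR, limma voom with sample weights (limma 3.58.1), no robust moderation, counts per Ensembl identifier, other filters, the irradiated libraries alone, a test against a fold of 1.5, the replicate block, and each library left out. Named genes were taken from the 15 largest changes in each direction (mean log2 CPM of at least 3, groups apart), 5 members per list with the smallest p and the called member that moved most against the list median, the 8 largest differences from sham in each direction, and a panel of 42 genes. Some genes that this rule takes are not reported here. A few other list members are named as examples, chosen after their values were seen. The comparison, the 52 gene lists (1119 genes, 971 tested) and the panel were chosen with earlier results of these data known. Promoters are RefSeq's for GRCr8. Symbols on several identifiers numbered 246, and both kinds of deposited file held the same counts for every symbol.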

Additional observations from a re-analysis of the deposited data

Results flagged for a closer look

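Single libraries lay far from the other 3 of their group in 32 of the 592 groups of values examined, by Dixon's test at the 95% level. Chance flags about 1 in 20 groups, and the total was near that rate. LPS 1 accounted for 10 of the 32 and PBS 1 for 9, and whether the cells in these libraries or their handling set these values was not tested.

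LPS 1 stood highest for the summed markers of neutrophils (2528 CPM, against 416.1 to 631.9 CPM in LPS 2 to 4), neurons (131.8 CPM, against 13.65 to 31.69 CPM) and red cells (158.2 CPM, against 10.38 to 25.92 CPM). It was also highest for the granulocyte genes Mmp8 (161 CPM, against at most 28.8 CPM) and Mmp9 (20.7 CPM, against at most 4.08 CPM), for Serpinb1a (684 CPM, against at most 352 CPM), Socs2 (34.2 CPM, against at most 15.0 CPM) and for Ccl24 (28.2 CPM, against at most 14.3 CPM). It was lowest for Gpr84 (460.5 CPM, against at least 671 CPM) and Irgm (197 CPM, against at least 266 CPM). Among the other LPS libraries, LPS 2 was highest for Cd6 (176 CPM), LPS 3 lowest for Gbp2 (338 CPM), and LPS 4 lowest for Apoe (10261 CPM) and highest for Myd88 (275 CPM).

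PBS 1 was highest for Lcn2 (2.41 CPM, against at most 0.595 CPM in PBS 2 to 4), Mt2A (1.08 CPM, against at most 0.246 CPM), Psmc1 (99.98 CPM) and Ptpn1 (205 CPM). It was lowest for the purine receptors P2ry13 (692 CPM, against at least 920.2 CPM) and P2ry14 (82.2 CPM, against at least 104 CPM), for Pmaip1 (7.61 CPM), Psmd12 (84.6 CPM) and Tnfaip3 (47.6 CPM). PBS 2 was highest for C3ar1 (507 CPM) and P2ry12 (297 CPM) and lowest for Pim1 (0.737 CPM) and Vcan (0.567 CPM, against at least 4.12 CPM). PBS 3 was lowest for Ccl2 (7.37 CPM) and Fbxl5 (59.4 CPM) and highest for Txnrd1 (23.9 CPM), and PBS 4 was highest for Ccl7 (9.999 CPM) and lowest for Cd63 (469 CPM).

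Of 285 tested genes named in the results, 39 had a response to LPS that differed between irradiated and sham rats in the interaction term of the edgeR fit. Over all tested genes 0.674% were more positive and 0.707% more negative. The named genes include the 8 largest called differences in each direction, so the count of 39 is partly set by that choice. Log2 differences, irradiated minus sham, were positive for Slc7a2 (2.91), Cd274 (2.13), Gbp5 (2.13), Rgs18 (1.94), Il1rap (1.85), Tnip1 (1.81), Fbxl5 (1.69), Serpinb1a (1.66), Pde4b (1.63), Sod2 (1.63), Steap4 (1.52), Ccrl2 (1.42), Fcgr2b (1.34), Slc11a2 (1.27), Tnfaip3 (1.24), Ighm (1.22) and Slc2a1 (1.15). Smaller positive differences were seen for Sqle (0.88), Hilpda (0.87), Hif1a (0.77), Fcgr2a (0.71), Casp4 (0.70), Cflar (0.69), Stat2 (0.67) and Cd86 (0.50). They were negative for Egr1 (-3.09), Pithd1 (-2.42), Pim1 (-2.24), Rcn2 (-2.07), Sdc1 (-2.05), Rnf187 (-2.02), Mtarc1 (-2.004), Odc1 (-1.96), Snx20 (-1.90), Cdkn1a (-1.66), Bcl3 (-1.60), Btg2 (-1.39), Eva1a (-0.85) and Zfp36l1 (-0.62).

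Beside Rgs18, Pithd1 and Rcn2, several of these calls were lost when a single library was left out. For Ighm this was sham LPS 4 (adjusted p = 0.051). For Cdkn1a it was LPS 4, sham LPS 2 or sham PBS 2 to 4 (adjusted p between 0.0527 and 0.0658), and for Bcl3 LPS 2, LPS 4, PBS 1, PBS 4, sham LPS 4 or sham PBS 1 to 3 (between 0.0504 and 0.0824). For Stat2 it was any library other than LPS 3, PBS 2, sham LPS 2, sham LPS 3 and sham PBS 3 (between 0.0515 and 0.094), and for Eva1a any other than LPS 3, PBS 1, sham LPS 1 and sham LPS 3 (between 0.06 and 0.0856). For Hilpda it was any other than LPS 1 and sham PBS 2 (between 0.0563 and 0.0988), and for Cd86 any other than sham LPS 3 (between 0.0568 and 0.114). Without both LPS 1 and PBS 1 the calls for Tnfaip3 and Casp4 were lost as well. In limma voom with sample weights the calls for Bcl3, Cdkn1a, Hilpda, Ighm, Pim1, Pithd1 and Rgs18 were lost (adjusted p between 0.0725 and 0.272). With library totals alone those for Cd86, Cflar, Hilpda and Stat2 were lost (between 0.0525 and 0.0757), and with no filter on low counts those for Rcn2 (0.0518) and Rgs18 (0.0723). Rgs18 was also lost with the replicate block (0.056), and Cd86 with DESeq2's size factors, without robust moderation and with counts per Ensembl identifier (between 0.0532 and 0.0575).

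Gene identifiers that carry no symbol in the files took 1.85% to 2.28% of the counts. They entered no comparison above other than the alternative with counts per Ensembl identifier. In that fit of all identifiers together, 108 of 1208 tested without a symbol were higher and 119 lower with LPS in irradiated rats. In the main fit, by symbol, the shares over all tested symbols were 17.7% higher and 15.2% lower. The shares over all identifiers of the fit by identifier are not given here.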

How the results depend on the processing

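Alternatives were tried for each result, 20 for the comparison within irradiated rats and 26 for the difference from sham rats. None of the 269 named genes that passed changed its direction. Of the 16 that did not pass 5 changed sign in at least 1 setting, Gpnmb without both LPS 1 and PBS 1 (0.01), Ly96 without LPS 2 (-0.08), Socs2 without LPS 1 (-0.11) and without both LPS 1 and PBS 1 (-0.26), and Hk2 and Socs5 with, among others, library totals alone (-0.10 and -0.06 in this order). Of 5699 refitted values of named genes 119 lost and 17 gained the call. Calls were gained with library totals alone for Apoe (adjusted p = 0.00621) and Csf1r (0.00342), in the irradiated libraries only for Hmox1 (0.0486), B2m (0.0466) and Tsc22d3 (0.0306), and in DESeq2 for Il6 (0.0318), Hmox1 (0.0243) and B2m (0.0393). Il6 (0.0438) and Socs7 (0.0441) also passed in limma voom and B2m with DESeq2's size factors in edgeR (0.0489). Testing against a fold change of 1.5 left 1068 calls in irradiated rats, 675 higher and 393 lower. The count of differences was the least stable. DESeq2 called 417 (176 more positive, 241 more negative), and 101 remained in number without both LPS 1 and PBS 1 (48 and 53 in the same order). Leaving out 1 library gave between 107 and 198 differences, of which between 54 and 103 were more positive and between 51 and 107 more negative. With library totals alone 175 were more negative, and with the replicate number as a block 133. The replicate block gave 4229 calls in irradiated rats. Same-numbered irradiated libraries correlated by 0.441, 0.164, 0.242 and 0.085 in their deviations from the group means, and same-numbered sham libraries by 0.126, 0.06, 0.012 and 0.111. The labels do not say what the numbers mean, and they were not taken as pairs. Each irradiated LPS library matched best with the irradiated PBS library of its own number, a hint from the data and not from the design. List medians close to 0 changed sign with library totals alone for oxidative phosphorylation (-0.1031), ribosomal proteins (-0.0821), lipid genes (-0.0403), p53 targets (-0.0825) and prostaglandin genes (-0.0193), with all low genes kept for endothelial markers (-0.3278), and without both LPS 1 and PBS 1 for purinergic receptors (-0.1695). When 1 library was left out they ranged between -0.1784 and 0.0262 for colony-stimulating factor genes, -0.1205 and 0.1185 for ion channels, -0.1185 and 0.1164 for endothelial markers and -0.9943 and 1.07 for astrocyte markers. The causes were not tested. Depth limits Ptgs2 (0 to 2 counts per PBS library), Il10 (1 to 9 counts) and Mmp9 (9 to 24 counts).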
